A study of Mus musculus with 45 samples.

Results

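The neurotrophin system was examined in the mouse hippocampus through 7 of the 15897 genes in the table, chosen by symbol and matched to their Ensembl identifiers. They comprised 2 ligands (Bdnf and Ntf3), 3 receptors (Ntrk2, Ntrk3 and Ngfr) and 2 secreted proteins that neurons release (Vgf and Nptx2). All 7 were present in the table and passed the authors' filter on low counts.

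Neurotrophins are secreted growth factors that maintain neurons and adjust synapses. Bdnf encodes brain-derived neurotrophic factor, which binds the receptor tyrosine kinase TrkB (Ntrk2), and Ntf3 encodes neurotrophin-3, which binds TrkC (Ntrk3). The p75 receptor (Ngfr) binds all neurotrophins and, with sortilin, their precursors. In the hippocampus Bdnf is made by glutamatergic neurons and is induced by synaptic activity. Ntrk2 is expressed as a full-length kinase by neurons and as a truncated form without the kinase by astrocytes as well. Vgf is a granin-like precursor of neuropeptides that Bdnf induces, and Nptx2 is a pentraxin that gathers AMPA receptors at excitatory synapses on interneurons.

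RNA came from the hippocampus of 45 female mice, all on a C57Bl/6J background and each a separate animal. AwTw were wild-type littermates, AwT+ carried tau P301L under a CaMKII promoter, A+Tw carried APPswe/PS1dE9 (chimeric mouse/human APP695 and human PS1 without exon 9, driven by the mouse prion protein promoter) and A+T+ carried both. From 7 to 13 months of age the mice were fed a standard diet (STD, 5% fat and 0% cholesterol) or a typical western diet (TWD, 21% fat by weight, 0.15% cholesterol and 35% sucrose). There were 6 mice in each group apart from A+Tw/STD with 5 and A+T+/STD with 4. The labels divided the mice into batch 0 (20 mice) and batch 1 (25 mice), and batch 0 held a single A+Tw/STD mouse. In the table, all markers chosen for dentate granule cells (7), CA1 (5) and CA2 and CA3 pyramidal cells (6) were present, while the defining cholinergic genes Chat, Slc18a3 and Slc5a7 were not listed. Choroid plexus markers, which belong to tissue beside the hippocampus, ranged in their mean from 6.07 to 10.3 across mice. Values below are the deposited ones, on a variance-stabilized scale that is close to log2, and differences are on that scale. Levels of different genes are not compared, since the values are not scaled to transcript length.

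Annotation placed the members on separate loci of the GRCm38 genome (GENCODE M21). Bdnf lies at chr2:109674700-109727007 on the plus strand, Ntf3 at chr6:126101412-126166910 on the minus strand, and Ngfr at chr11:95568818-95587735 on the minus strand. Ntrk2 spans chr13:58806569-59133970 on the plus strand and Ntrk3 spans chr7:78175959-78738012 on the minus strand. Vgf (chr5:137026392-137033351) and Nptx2 (chr5:144545902-144557478) are both on the plus strand of the same chromosome. The 7 complete coding transcripts of Ntrk2 hold 5 distinct coding sequences of up to 821 codons, and the 4 of Ntrk3 hold 4 of 612 to 864 codons. Each value sums all transcripts of its gene, so kinase-bearing and truncated receptors could not be told apart. Antisense genes overlap Bdnf, Ntrk2 and Ntrk3 in the annotation. The libraries were stranded, but whether quantification used strand is not given in the sources used here.

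Upstream sequences are shown for Ntrk2, the only member that passed the test for diet, and for Bdnf, whose windows include 1 with a half-site of the cAMP response element. RefSeq windows of 300 bases (250 before to 50 after a start, GRCm38.p6) matched 4 of the members with 11 windows, 7 of them Bdnf starts. The half-site CGTCA, or TGACG on the other strand, was in 1 of these 11 windows and in 20.8% of all 32851 windows of that length. The first sequence below is chr2:109692186-109692485 (plus strand), with the half-site in capitals. The second is chr13:58806319-58806618 (plus strand), which holds no half-site.
Bdnf: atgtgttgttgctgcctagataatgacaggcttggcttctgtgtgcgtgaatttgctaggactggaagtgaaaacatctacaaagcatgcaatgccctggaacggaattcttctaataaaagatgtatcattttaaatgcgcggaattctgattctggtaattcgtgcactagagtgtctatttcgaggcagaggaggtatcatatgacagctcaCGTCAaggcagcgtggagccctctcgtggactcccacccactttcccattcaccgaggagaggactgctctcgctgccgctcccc
Ntrk2: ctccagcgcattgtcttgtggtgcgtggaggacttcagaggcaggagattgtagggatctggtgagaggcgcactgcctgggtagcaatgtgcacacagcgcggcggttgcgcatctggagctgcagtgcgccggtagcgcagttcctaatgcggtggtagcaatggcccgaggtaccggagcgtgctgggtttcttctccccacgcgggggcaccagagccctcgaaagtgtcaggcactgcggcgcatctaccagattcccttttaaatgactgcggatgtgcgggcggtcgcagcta

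The first question was whether the diet altered these transcripts irrespective of genotype. Ntrk2 was lower on TWD, and the other 6 members did not pass the test. Ntrk2 ranged from 12.49 to 13.13 (median 12.91) in the 21 STD mice and from 11.99 to 13.01 (median 12.68) in the 24 TWD mice. The diets overlapped, yet 9 TWD mice lay below the lowest STD mouse and 20 of 24 lay below the STD median. With genotype and batch in the model the difference was -0.29 ± 0.07 (SE, limma, adjusted p = 0.0157), a level on TWD of 0.818 times that on STD (95% confidence interval 0.743 to 0.901). Among all genes, 4678 of 15897 passed this test (29.4%), 2546 higher and 2132 lower on TWD, so 1 member of 7 was below the background share. At an unadjusted p below 0.05 there were 2 members, Ntrk2 and Ntrk3, against 44.1% of all genes.

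**Figure D1:**
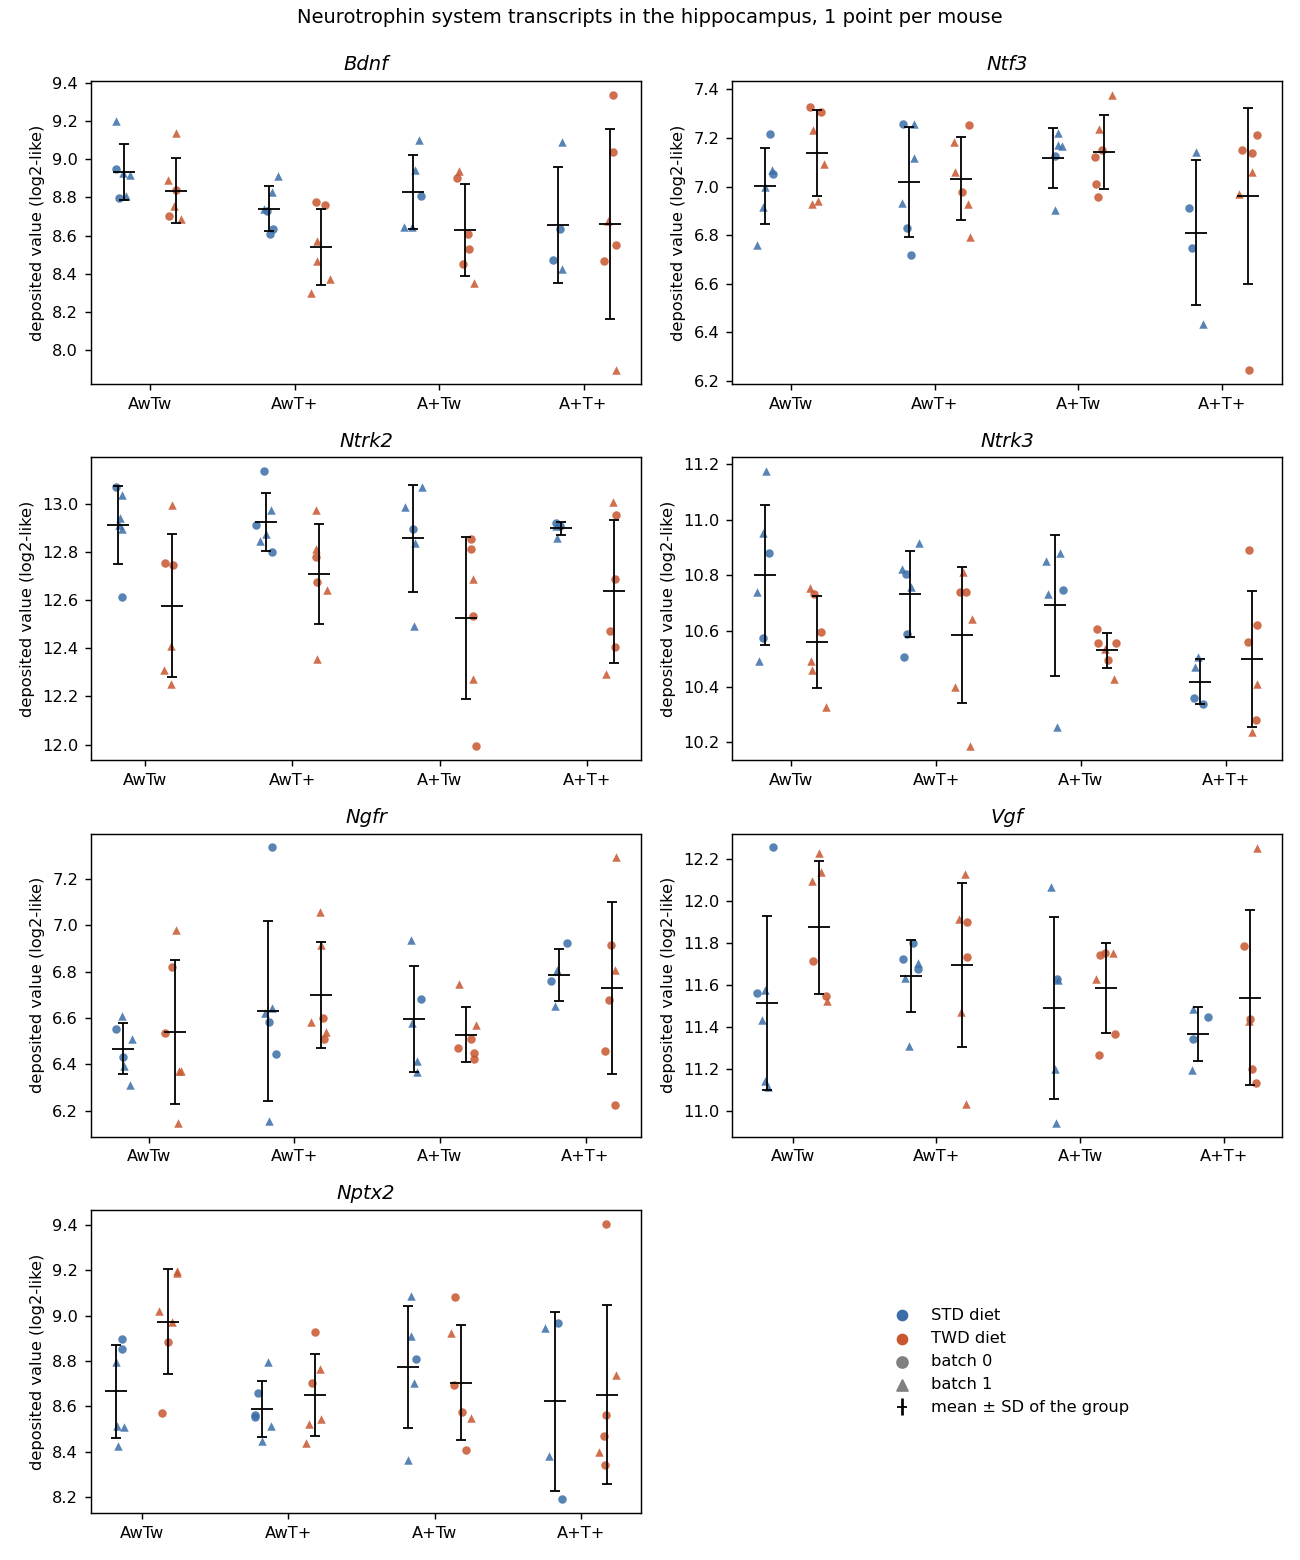
Deposited log2-like value of each of the 7 genes (vertical axis, scaled per gene) in each of the 45 mice by genotype (horizontal axis). Blue is STD, orange is TWD, circles are batch 0 and triangles batch 1, and bars are the group mean ± SD. In the Ntrk2 panel the 4 TWD means lie between 12.52 and 12.71, below the 4 STD means between 12.86 and 12.92, while mice of both diets overlap.

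The order of the Ntrk2 group means followed the diet. From low to high they were A+Tw/TWD (12.52 ± 0.34 SD, n = 6), AwTw/TWD (12.58 ± 0.30, n = 6), A+T+/TWD (12.64 ± 0.30, n = 6), AwT+/TWD (12.71 ± 0.21, n = 6), A+Tw/STD (12.86 ± 0.22, n = 5), A+T+/STD (12.90 ± 0.03, n = 4), AwTw/STD (12.91 ± 0.16, n = 6) and AwT+/STD (12.92 ± 0.12, n = 6). No step between neighbours exceeded 0.15, which was within the SD of at least 1 of the 2 neighbours at each step. The 4 A+T+/STD mice were close together, at 12.86, 12.91, 12.91 and 12.92. The 5 A+Tw/STD mice were at 12.49, 12.84, 12.89, 12.99 and 13.07, and the first of these was the lowest STD mouse. By genotype, Ntrk2 differed between the diets by -0.33 ± 0.14 (AwTw), -0.21 ± 0.14 (AwT+), -0.35 ± 0.15 (A+Tw) and -0.27 ± 0.15 (A+T+). None of these passed in limma (adjusted p = 0.0714, 0.654, 0.706 and 0.998), although the sign was the same in all 4. In AwTw 9.35% of all genes passed. In AwT+, A+Tw and A+T+ 0% passed, while 1183, 705 and 409 genes respectively had an unadjusted p below 0.05.

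**Figure D2:**
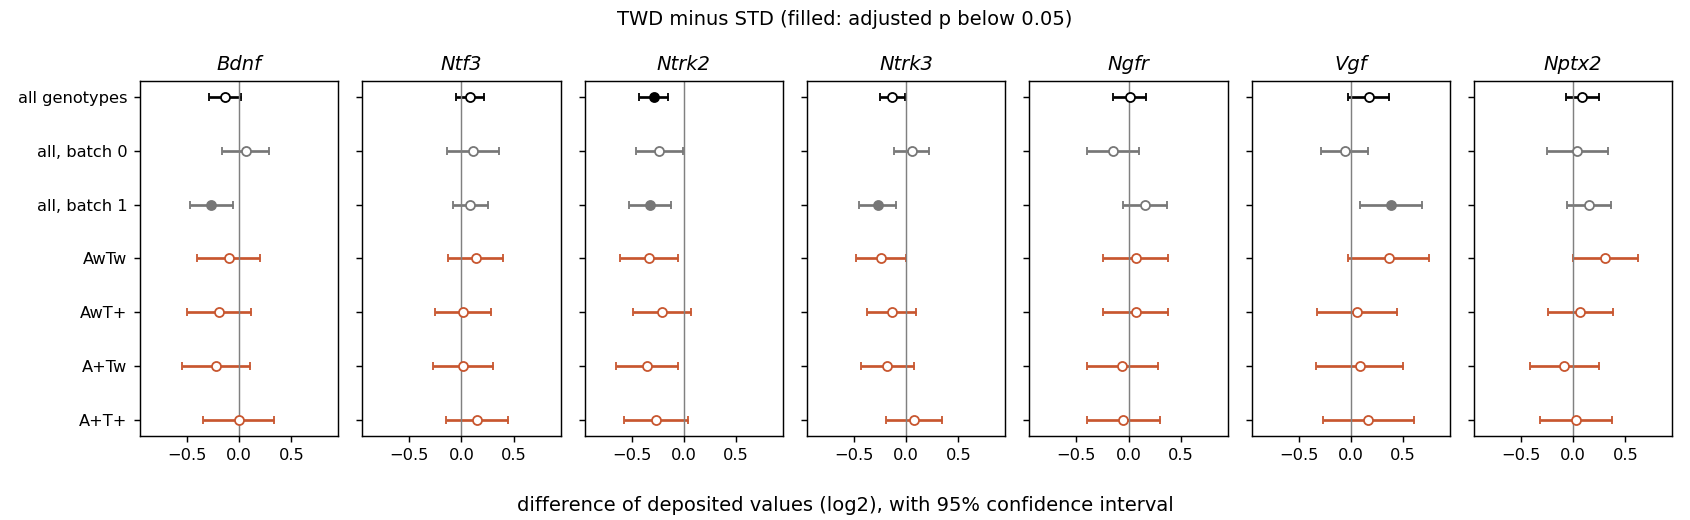
Difference TWD minus STD of each gene (horizontal axis, log2, points with 95% confidence intervals) over all genotypes, in each batch and in each genotype (rows). Filled points have an adjusted p below 0.05 in limma. Ntrk2 lies left of 0 in all 7 rows, whereas Bdnf, Ntrk3, Ngfr and Vgf lie on opposite sides of 0 in the 2 batches.

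Markers of glia also differed between the diets, in both directions, beside 29.4% of all genes that passed this test. So did neuronal markers, such as Stmn2 (0.29 ± 0.08) and Syt1 (-0.26 ± 0.09). The endothelial marker Ly6c1 (0.39 ± 0.10) and the mural cell marker Rgs5 (-0.45 ± 0.13) differed as well. Of the 6 astrocyte markers 3 were lower on TWD, namely the water channel Aqp4 (-0.41 ± 0.11, adjusted p = 0.0159), the connexin Gja1 (-0.38 ± 0.11, adjusted p = 0.0162) and the glutamate transporter Slc1a2 (-0.49 ± 0.15, adjusted p = 0.0189). Aldh1l1, another astrocyte marker, was higher (0.24 ± 0.06, adjusted p = 0.0157). Of the 6 oligodendrocyte markers 3 were higher, the myelin genes Cldn11 (0.24 ± 0.08), Mbp (0.20 ± 0.08) and Cnp (0.22 ± 0.08), with adjusted p between 0.0306 and 0.0428. In bulk RNA fewer cells of a type and less RNA per cell cannot be told apart. The mean of the astrocyte markers ranged from 11.7 to 12.2 on STD and from 11.3 to 12.3 on TWD, and that of the oligodendrocyte markers from 12.2 to 12.8 and from 12.2 to 12.9. No defining marker of either list was absent from the table.

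Across mice, Ntrk2 followed the astrocyte markers closely. Correlations with marker lists, here and below, used the deposited values with group means left in, so shared diet and genotype differences count in them. With the mean of the 5 markers other than Gfap, Pearson's r was 0.93 and Spearman's rho 0.83 over 45 mice (both permutation p = 1e-05, the smallest that 100000 permutations within batch give, adjusted p = 0.000149 and 0.000198 over 119 relations). The r was 0.93 in batch 0, 0.93 in batch 1 and 0.90 without the 2 mice farthest from the median of the markers. With Gfap kept in the astrocyte mean, r was 0.77. Ntrk2 was also tied to other lists, so this was not particular to astrocytes. The r was 0.75 with neocortex markers (0.85 in batch 0 and 0.69 in batch 1) and -0.56 with oligodendrocyte markers. It was -0.54 with CA2 and CA3 markers and 0.43 with dentate granule cell markers. With this mean as a covariate, the diet difference of Ntrk2 was -0.08 ± 0.04 (limma, adjusted p = 0.903), and with the oligodendrocyte mean it was -0.21 ± 0.07 (adjusted p = 0.223). With either covariate 0 of the 15897 genes passed the test for diet. With dentate granule cell, choroid plexus, or mural and meningeal markers as the covariate the Ntrk2 difference was between -0.30 and -0.27 and passed. Whether glial RNA had a part in the lower Ntrk2 was not tested.

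**Figure D3:**
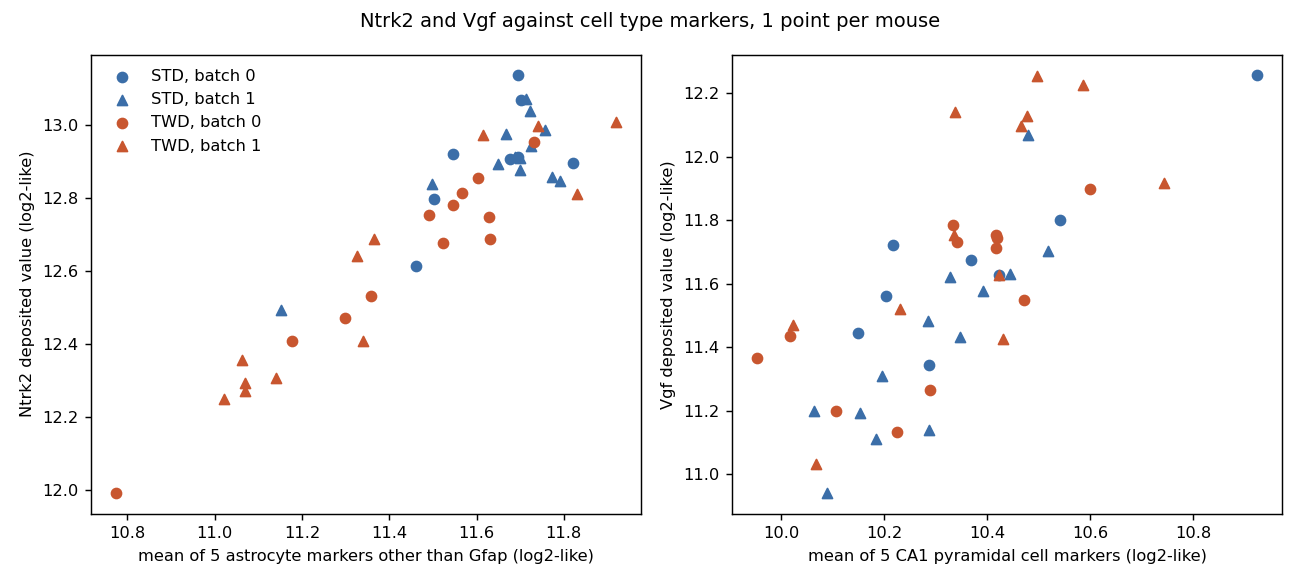
Left, Ntrk2 against the mean of 5 astrocyte markers other than Gfap; right, Vgf against the mean of 5 CA1 pyramidal cell markers; both axes are deposited log2-like values, 1 point per mouse, coloured by diet and shaped by batch. Points run along a rising line in both panels (r = 0.93 and 0.75), and TWD mice make up the lower end for Ntrk2.

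The genes most like Ntrk2 over the 45 mice were Slc38a1, a glutamine transporter (r = 0.94), Sash1 (0.93) and Abat, the enzyme that degrades GABA (0.93). With group and batch means removed these were 0.93, 0.92 and 0.96. These 3 were picked for the highest r among all genes, so no test is attached.

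Bdnf, the ligand of TrkB, differed between the diets by -0.13 ± 0.08 (adjusted p = 0.171). STD mice ranged from 8.42 to 9.20 (median 8.81) and TWD mice from 7.90 to 9.34 (median 8.68), and 17 of 24 TWD mice lay below the STD median. Ntrk3, encoding TrkC, differed by -0.13 ± 0.06 (adjusted p = 0.0918), from 10.25 to 11.17 (median 10.74) on STD and from 10.18 to 10.89 (median 10.56) on TWD, with 20 of 24 TWD mice below the STD median. Vgf differed by 0.17 ± 0.10 (adjusted p = 0.169), with ranges of 10.94 to 12.26 on STD and 11.03 to 12.25 on TWD. The remaining differences were 0.08 ± 0.07 for Ntf3 (adjusted p = 0.365), 0.09 ± 0.08 for Nptx2 (adjusted p = 0.396) and 0.01 ± 0.08 for Ngfr (adjusted p = 0.911). The 95% interval of Ngfr ran from -0.15 to 0.17, and that of Vgf from -0.03 to 0.37. Ntrk3 passed without A+Tw/STD replicate 2 (-0.15, adjusted p = 0.0397) or without A+T+/TWD replicate 4 (-0.15, adjusted p = 0.0432). The median over the members was 0.01, beside -0.0014 over all genes.

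The diet difference was also fitted in each batch alone. In batch 1 alone (13 STD and 12 TWD mice), 4 members passed in limma: Bdnf (-0.26 ± 0.10, adjusted p = 0.0411), Ntrk2 (-0.33 ± 0.10, adjusted p = 0.0181), Ntrk3 (-0.27 ± 0.09, adjusted p = 0.0205) and Vgf (0.38 ± 0.14, adjusted p = 0.0373), against 40.9% of all genes. In batch 0 alone (8 STD and 12 TWD mice) none passed, and the values were 0.06 for Bdnf, -0.23 for Ntrk2, 0.05 for Ntrk3 and -0.06 for Vgf (adjusted p = 0.82 to 0.90), against 0% of all genes. For Bdnf the STD and TWD means were 8.70 and 8.75 in batch 0, and 8.86 and 8.59 in batch 1. For Vgf they were 11.68 and 11.55 in batch 0, and 11.42 and 11.80 in batch 1.

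The difference between the batches was then tested directly in a fit with a diet-by-batch term. It was -0.33 ± 0.15 for Bdnf, -0.33 ± 0.12 for Ntrk3, 0.33 ± 0.16 for Ngfr and 0.48 ± 0.19 for Vgf (limma, adjusted p = 0.155, 0.125, 0.165 and 0.130). Ntrk2 gave -0.09 ± 0.14 (adjusted p = 0.683). No gene of the table passed after adjustment, and the 4 members with an unadjusted p below 0.05 stand against 28% of all genes. What separates the batches beyond their number is not given in the sources used here.

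Much of this spread lay along a single axis. The first principal component of the residuals, after group and batch were removed, held 41.3% of the residual variance of the table. Its score for each mouse was computed from the deposited values, so diet and genotype differences stay in it. The mean score was 0.45 on STD and -0.39 on TWD. Over 45 mice the score correlated with Ntrk2 (r = 0.77), Bdnf (0.57) and Ntrk3 (0.53), and inversely with Vgf (-0.70). The score ranged from -1.23 to 1.95 on STD and from -2.42 to 1.24 on TWD. The Vgf correlation was -0.83 in batch 1 and -0.11 in batch 0. With the score as a covariate the diet difference was -0.14 ± 0.05 for Ntrk2 (limma, adjusted p = 0.587), -0.004 for Bdnf, -0.05 for Ntrk3 and -0.06 for Vgf, and 0 genes in the table passed. Since the score itself differed between the diets, this fit cannot separate the component from diet. What the component stands for was not tested.

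Within wild-type mice, the genotype with the most genes past the diet test, no member passed. Vgf was 0.36 ± 0.19 higher on TWD (adjusted p = 0.148), with 11.11 to 12.26 (median 11.50) in 6 AwTw/STD mice and 11.52 to 12.23 (median 11.91) in 6 AwTw/TWD mice. Nptx2 was 0.31 ± 0.15 higher (adjusted p = 0.126), with 8.42 to 8.90 against 8.57 to 9.20, and AwTw/TWD had the highest Nptx2 mean of the 8 groups (8.97 ± 0.23 SD). Ntrk3 differed by -0.24 ± 0.12 (adjusted p = 0.116). The groups overlapped for all 3 genes. Single mice decided some of these calls in limma: Vgf passed without AwTw/STD replicate 6 (0.52, adjusted p = 0.0341), and Ntrk2 passed without AwTw/STD replicate 2 (-0.40, adjusted p = 0.0326) or without AwTw/TWD replicate 5 (-0.42, adjusted p = 0.0176). In batch 1 alone Nptx2 passed (0.53, adjusted p = 0.0430). Ntrk2 and Ntrk3 were the 2 members with an unadjusted p below 0.05, against 40.2% of all genes.

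The second question was how the transgenes altered the members. Averaged over tau and diet, the A+ mice differed from the Aw mice by -0.14 ± 0.06 in Ntrk3 (limma, adjusted p = 0.259) and by -0.19 ± 0.10 in Vgf (adjusted p = 0.365). The other 5 lay between -0.08 and 0.08. No member passed, against 3.77% of all genes (599, of which 494 were higher), and 1 member had an unadjusted p below 0.05, against 15.1% of all genes. The 95% intervals reached down to -0.39 for Vgf and -0.26 for Ntrk3. With the residual component as a covariate Vgf passed (-0.30 ± 0.06, limma, adjusted p = 0.00165), as did 1028 of 15897 genes, 434 of them lower. The mean score of the component was 0.19 in Aw and -0.21 in A+ mice, so that fit cannot separate it from genotype. In the same mice 5 of the 7 microglia markers rose, for example the complement gene C1qa (1.19 ± 0.10, adjusted p = 1.2e-11), and the astrocyte gene Gfap rose by 1.44 ± 0.06 (adjusted p = 2.1e-21).

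**Figure D4:**
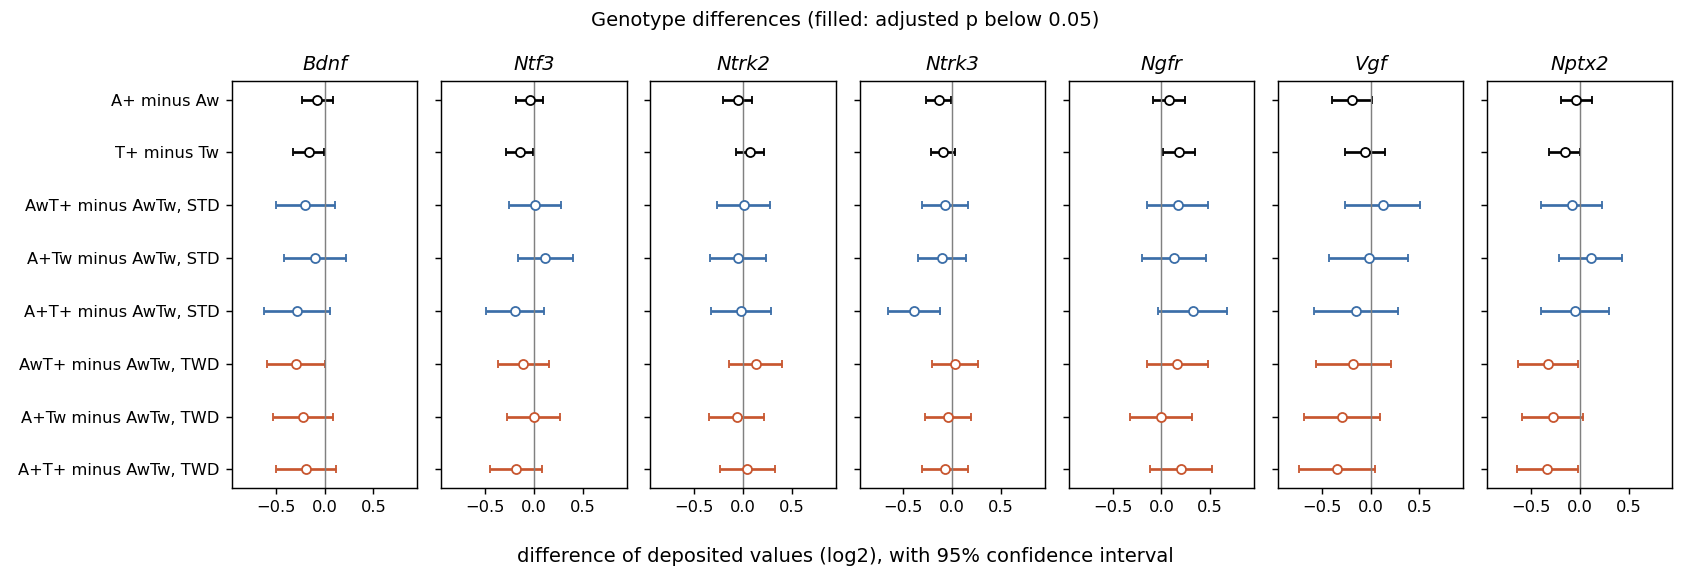
Genotype differences of each gene (horizontal axis, log2, points with 95% confidence intervals), averaged over the other factors (2 black rows) and for each genotype against AwTw on STD (blue) or TWD (orange). All points are open, since none had an adjusted p below 0.05, and the point farthest from 0 is that of Ntrk3 in A+T+ on STD (-0.39).

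Averaged over APP/PS1 and diet, the T+ mice differed from the Tw mice by -0.16 ± 0.08 in Bdnf, -0.15 ± 0.07 in Ntf3 and 0.18 ± 0.08 in Ngfr. These are 3 of 7 members at an unadjusted p below 0.05, against 5.15% of all genes. None passed in limma after adjustment (adjusted p = 0.967, 0.964 and 0.935), and 3 genes in the table did (0.0189%). Bdnf ranged from 7.90 to 9.34 (median 8.64) in 22 T+ mice and from 8.35 to 9.20 (median 8.81) in 23 Tw mice. Ngfr ranged from 6.15 to 7.34 (median 6.65) and from 6.15 to 6.98 (median 6.51). Choroid plexus markers moved with the same comparison, at a median of 0.92 with 14 of 15 at an unadjusted p below 0.05 and 0 past the adjusted test. Their mean ranged from 6.07 to 10.3 in T+ mice and from 6.19 to 9.86 in Tw mice. With that mean as a covariate the differences were 0.10 ± 0.08 for Ngfr, -0.13 ± 0.08 for Bdnf and -0.14 ± 0.07 for Ntf3. The part of choroid plexus RNA in these differences was not tested.

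Each genotype was also compared with AwTw on the same diet, and the 3 comparisons of a diet share the AwTw mice. No member passed in any of the 6. Ntrk3 in A+T+ on STD came nearest, at -0.39 ± 0.13 (limma, adjusted p = 0.162). The 4 A+T+/STD mice were at 10.34, 10.36, 10.47 and 10.51, and the 6 AwTw/STD mice ran from 10.49 to 11.17 (median 10.81). The groups overlapped by 1 pair of mice, and on TWD the difference was -0.07 ± 0.12. On STD it was -0.38 in batch 0 and -0.35 in batch 1. With the astrocyte markers other than Gfap as a covariate it was again -0.39, with a smaller SE of 0.11, and passed (limma, adjusted p = 0.0351). The share of all genes that passed in that refit is not given here. For A+ against Aw the same covariate raised the count of all genes from 599 to 830. Without the covariate, Ntrk3 was the 1 member with an unadjusted p below 0.05 for A+T+ on STD, against 14.3% of all genes.

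Ngfr was the only member whose values did not overlap between any genotype and AwTw. On STD the A+T+ mice were at 6.65, 6.76, 6.81 and 6.92, all above the 6 AwTw mice at 6.31 to 6.61 (median 6.47). The fitted difference was 0.32 ± 0.17 (limma, adjusted p = 0.376). Of all genes 2.82% were higher without overlap in that comparison. The choroid plexus mean was 9.28 to 10.1 in these A+T+ mice and 6.42 to 9.80 in the AwTw mice, and with it as a covariate Ngfr gave 0.15 ± 0.17. Across 45 mice Ngfr correlated with the choroid plexus mean at r = 0.50 and rho = 0.54 (permutation p = 0.00046 and 0.00025, adjusted p = 0.00288 and 0.00198), at 0.41 in batch 0, 0.57 in batch 1 and 0.49 without the 2 farthest mice. This was not particular to choroid plexus. The r was 0.50 with endothelial markers, 0.47 with mural and meningeal markers and 0.39 with thalamus and habenula markers (permutation test, adjusted p = 0.00389, 0.00585 and 0.0352). The part of choroid plexus tissue in the Ngfr difference was not tested.

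On TWD, Nptx2 differed from AwTw by -0.32 ± 0.15 in AwT+ and by -0.33 ± 0.16 in A+T+ (limma, adjusted p = 0.865 and 0.598). These contrasts set groups against the AwTw/TWD mice, which had the highest mean. On STD they were -0.08 ± 0.15 and -0.05 ± 0.17. Among all genes the share that passed was 0% for AwT+ on STD and 0% on TWD, 0.925% and 0.824% for A+Tw, and 1.32% and 0.73% for A+T+. At an unadjusted p below 0.05, limma gave 380 genes for AwT+ on STD and 484 on TWD.

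Whether a genotype difference changed with the diet was tested as an interaction. No member passed for AwT+, A+Tw or A+T+, and neither did any other gene (0% each). An unadjusted p below 0.05 was seen for 639, 352 and 1001 genes. The smallest p was that of Ntrk3 for A+T+ (0.32 ± 0.17, limma, adjusted p = 0.56), followed by Nptx2 for A+Tw (-0.39 ± 0.22, adjusted p = 0.919). With 4 to 6 mice per group the intervals were wide, and that of Ntrk3 in A+T+ ran from -0.04 to 0.67.

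The members were then compared with each other across mice, on values from which group and batch means had been removed. Of the 21 pairs 6 passed (permutation test within batch, adjusted over the 21). Vgf and Nptx2, the 2 secreted proteins, gave the highest r at 0.55 (permutation p = 6e-05, adjusted p = 0.00126; rho = 0.62, adjusted p = 0.00021), 0.53 in batch 0, 0.63 in batch 1 and 0.52 without the 2 mice farthest from the Vgf median. Bdnf correlated with Ntrk3 (r = 0.47, adjusted p = 0.0140; rho = 0.44, adjusted p = 0.0234) and with its receptor gene Ntrk2 (r = 0.45, adjusted p = 0.0140; rho = 0.49, adjusted p = 0.00735). Ntrk2 and Ntrk3 gave r = 0.41 (adjusted p = 0.0312; rho = 0.36, adjusted p = 0.0665). Without the 2 farthest mice these 3 were 0.45, 0.44 and 0.42. They were 0.57, 0.22 and 0.45 in batch 0, and 0.42, 0.61 and 0.39 in batch 1. None of these 3 passed in batch 0 alone (permutation test, adjusted p = 0.101, 0.624 and 0.168), and neither did Vgf and Nptx2 (adjusted p = 0.148). In batch 1 alone Bdnf and Ntrk3 (adjusted p = 0.149) and Ntrk2 and Ntrk3 (adjusted p = 0.163) did not pass.

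The 2 inverse pairs were uneven, Bdnf and Ntf3 across mice and Ntrk2 and Vgf across batches. Bdnf and Ntf3 were at -0.48 in batch 0 and -0.34 in batch 1. Bdnf and Ntf3 gave r = -0.40 (adjusted p = 0.0313), but rho = -0.23 (adjusted p = 0.24), and r was -0.21 without the 2 mice farthest from the Bdnf median. Without A+T+/TWD replicate 6 alone, which had the highest Bdnf (9.34) and Nptx2 (9.41) and the lowest Ntf3 (6.24) of all mice, r was -0.22 (permutation test, adjusted p = 0.342). In that refit another inverse pair passed, Bdnf and Vgf (r = -0.45, adjusted p = 0.0147), which over all 45 mice was at -0.35 (adjusted p = 0.0529). Bdnf and Vgf were at -0.60 in batch 1 (adjusted p = 0.0110) and at 0.08 in batch 0. Ntrk2 and Vgf gave r = -0.37 (adjusted p = 0.0425; rho = -0.39, adjusted p = 0.0520), and -0.44 without the 2 farthest mice. That pair was at -0.65 in batch 1 and 0.09 in batch 0, so it did not hold within both batches.

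**Figure D5:**
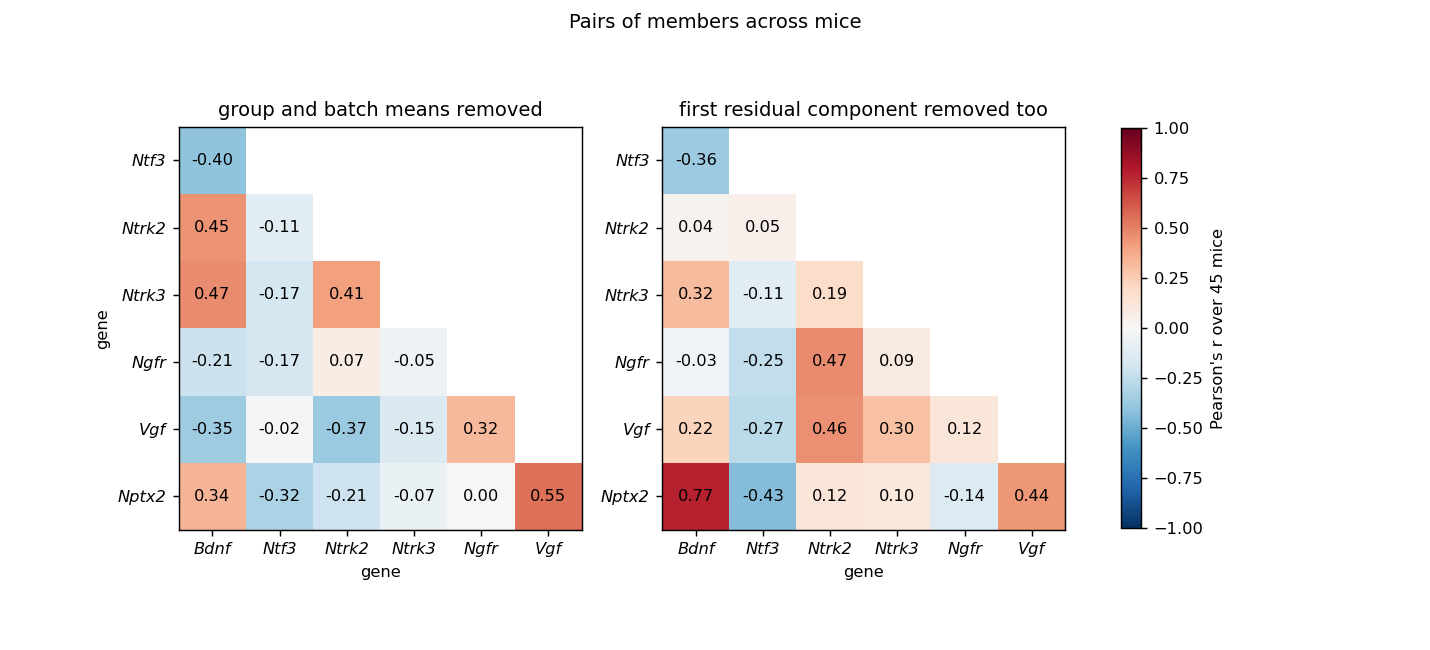
Pearson's r of each pair of members over 45 mice (rows and columns are genes, colour is r from -1 in blue to 1 in red), with group and batch means removed (left) and with the first residual component removed as well (right). Vgf and Nptx2 stay positive (0.55 and 0.44), Ntrk2 and Vgf turn from -0.37 to 0.46, and Bdnf and Nptx2 go from 0.34 to 0.77.

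Taking out the residual component changed which pairs stood out. Vgf and Nptx2 were then at 0.44, Bdnf and Nptx2 went from 0.34 to 0.77, and Ntrk2 and Vgf from -0.37 to 0.46. Bdnf and Ntrk2 (0.04), Bdnf and Ntrk3 (0.32), Ntrk2 and Ntrk3 (0.19) and Bdnf and Ntf3 (-0.36) no longer passed (permutation test, adjusted p = 0.858, 0.0861, 0.328 and 0.0857). Ntf3 and Nptx2 (-0.43, adjusted p = 0.0307) and Ntrk2 and Ngfr (0.47, adjusted p = 0.0210) now passed. Of the 6 pairs above only Vgf and Nptx2 still passed with the same sign. Without A+T+/TWD replicate 6, and with the component kept, Bdnf and Nptx2 were at 0.18.

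Vgf followed some lists of neuronal markers but not all, and a list that is not neuronal as well. With the mean of 5 CA1 pyramidal cell markers r was 0.75 and rho 0.77 (both permutation p = 1e-05, adjusted p = 0.000149 and 0.000198), at 0.79 in batch 0, 0.76 in batch 1 and 0.72 without the 2 farthest mice. With 27 activity-regulated genes such as Fos and Arc it was 0.71 (rho = 0.69, both permutation p = 1e-05, adjusted p = 0.000149 and 0.000198). For Vgf, r was 0.61 with pan-neuronal markers and 0.02 with dentate granule cell markers, and 0.65 with markers of oligodendrocyte precursors. Ntrk3 ran against the oligodendrocyte mean, at r = -0.69 and rho = -0.63 (permutation p = 1e-05 and 3e-05, adjusted p = 0.000149 and 0.000433). The r was -0.72 in batch 0, -0.68 in batch 1 and -0.65 without the 2 farthest mice. Other lists were tied to Ntrk3 as well, with r of 0.55 for neocortex, -0.54 for endothelial and 0.48 for dentate granule cell markers. Bdnf (-0.50) and Ntrk2 (-0.56) also ran against the oligodendrocyte mean.

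The genes most like the other members are given as a description over the 45 mice. They were Cx3cl1, the ligand of the microglial receptor Cx3cr1, for Vgf (r = 0.93), Rtn4rl1 for Nptx2 (0.71), Zfp804a for Bdnf (0.77), Car4, a carbonic anhydrase, for Ntf3 (0.64), Kat6b, a histone acetyltransferase, for Ntrk3 (0.75) and Prelp, an extracellular matrix protein, for Ngfr (0.71). Npy, an interneuron peptide, followed for Nptx2 (0.70). Tmem151b followed for Vgf (0.92), Iqgap2 and Kcns2 for Bdnf (both 0.71), Dio3 and Sypl2 for Ntf3 (0.58 and 0.57), Slitrk5 and Zmym3 for Ntrk3 (0.72 and 0.70), Atp2a3 and Itpr3 for Ngfr (0.71 and 0.70), and Wnt7b for Nptx2 (0.70).

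The rest of the pathway was read from lists of its parts under the same diet test, which 29.4% of all genes passed, so counts near that share say nothing particular to a list. Of 6 other neurotrophin and co-receptor genes that were measured, 1 was higher and 2 were lower on TWD. The lower ones were the sortilin-family receptors Sorcs3 (-0.24 ± 0.06, adjusted p = 0.0157) and Sorcs1 (-0.25 ± 0.08, adjusted p = 0.0214). Below the Trk receptors, 17 of 49 signalling genes passed, 4 higher and 13 lower, with a median of -0.09. The lower ones included the regulatory and catalytic PI3-kinase subunits Pik3r1 (-0.44 ± 0.10, adjusted p = 0.0157) and Pik3cb (-0.27 ± 0.07, adjusted p = 0.0158) and the Ras activator Sos1 (-0.46 ± 0.13, adjusted p = 0.0159), while Hras was higher (0.41 ± 0.11, adjusted p = 0.0157). Among 19 partners of p75, 5 were higher and 5 lower, such as Ndn (0.25 ± 0.06, adjusted p = 0.0157), Bex3 (0.30 ± 0.08, adjusted p = 0.0159), Mapk9 (-0.29 ± 0.08, adjusted p = 0.0175) and Adam10 (-0.42 ± 0.13, adjusted p = 0.0176). Of 8 genes for the cleavage of precursors only the protease inhibitor Serpini1 passed (-0.39 ± 0.14, adjusted p = 0.0336).

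Partners of the secreted members were read in the same way, again beside 29.4% of all genes. Of 12 granins and prohormone-processing genes 5 were higher and 2 lower on TWD, among them the vesicle proteins Chga (0.31 ± 0.08, adjusted p = 0.0159), Chgb (0.20 ± 0.06, adjusted p = 0.0167) and Pcsk1n (0.33 ± 0.10, adjusted p = 0.0211) on the higher side and Scg3 (-0.18 ± 0.06, adjusted p = 0.0311) on the lower. Of 6 pentraxin and AMPA receptor genes 3 were lower, the receptor subunits Gria2 (-0.56 ± 0.19, adjusted p = 0.0247), Gria3 (-0.47 ± 0.15, adjusted p = 0.0206) and Gria4 (-0.41 ± 0.13, adjusted p = 0.0259). The medians over these 2 lists were -0.01 and -0.23.

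Of 27 activity-regulated genes 5 were higher and 1 lower on TWD, beside the same 29.4%. Gadd45g (0.40 ± 0.11), Ier2 (0.30 ± 0.09) and Gadd45b (0.26 ± 0.08) were among the former and Ptgs2 (-0.53 ± 0.15) was the latter, with adjusted p between 0.0157 and 0.0200. Of 23 other growth factor genes 4 were higher and 4 lower, with Gfra4 (0.29 ± 0.08) and Manf (0.25 ± 0.07) higher and the receptors Erbb4 (-0.83 ± 0.23) and Met (-0.44 ± 0.13) lower (adjusted p between 0.0157 and 0.0199).

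The same lists were read for APP/PS1, where 3.77% of all genes passed against 29.4% for diet. In A+ against Aw mice the growth factor Igf1 rose (0.99 ± 0.08, adjusted p = 1.72e-13). The activity-regulated transcription factors Egr1 (-0.55 ± 0.11, adjusted p = 0.00151) and Npas4 (-0.38 ± 0.09, adjusted p = 0.00774) and the phosphatase Dusp6 (-0.27 ± 0.08, adjusted p = 0.0491) were the 3 of 27 that passed, and all 3 were lower. The median of that list was -0.18, beside -0.02 over all genes. Irs2 (-0.23 ± 0.07, adjusted p = 0.0348) was the 1 of 49 Trk signalling genes that passed, the peptide-amidating enzyme Pam (-0.18 ± 0.05, adjusted p = 0.0150) the 1 of 12 granin-list genes, and Gfra2, a receptor for GDNF-family ligands, was lower as well (-0.30 ± 0.08, adjusted p = 0.0336). None of the 19 p75 partners, 6 other neurotrophin genes or 6 pentraxin and AMPA receptor genes passed in limma, with 4, 1 and 3 at an unadjusted p below 0.05. In T+ against Tw mice Camk4 was the 1 gene of the Trk signalling list that passed (0.42 ± 0.08, adjusted p = 0.0418), named after its value was seen.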

How the data were processed

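The table holds 45 hippocampal libraries (stranded mRNA, single reads). The authors trimmed reads (Trimmomatic 0.38), removed rRNA and mitochondrial reads (Bowtie2 2.2.3), quantified mm10 transcripts (kallisto 0.44.0), summed them per gene, dropped genes with a mean count of 10 or less, applied the variance-stabilizing transformation of DESeq2 1.22.2 and removed batch with limma 3.38.3. The deposited values are therefore log2-like and carry no depth, so precision comes from the spread between mice.

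Groups, diet and batch came from the labels. Fits used limma 3.58.1 in R 4.3.3 with a mean trend and batch as a covariate, two-sided, with Benjamini-Hochberg adjustment over 15897 genes and a threshold of 0.05. Genotype, interaction and within-genotype diet contrasts came from a model with 8 group means, and diet over all genotypes from a model with genotype and diet as separate terms. Marker lists entered as mean values. Pairs were tested with 100000 permutations within batch (numpy 2.4.6, scipy 1.17.1). Plots used matplotlib 3.10.9. Symbols came from GENCODE M21 and matched 15695 genes.

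The members and lists were chosen with earlier results of these data known. All 7 members are named throughout, from each other list at most 4 genes per comparison that passed for diet or APP/PS1 (by p), and for each member the 3 genes with the highest r. A few genes that this rule names are not reported here. The fits were tested on simulated data with independent noise for each gene. Such data lack the shared residual component, so error rates in its presence were not checked. Alternatives were no batch term, each batch, the label prefix (AM or PM), the residual component, marker lists, quantile normalization, a filter on low values, no trend, robust estimation, copied genes counted once, fewer groups and each mouse left out. The diet-by-batch term, marker lists other than choroid plexus and the pairs without A+T+/TWD replicate 6 were added after the data were seen.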

Additional observations from a re-analysis of the deposited data

Results flagged for a closer look

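Among 56 combinations of a member and a group, 4 had a single mouse set apart from the rest of its group by Dixon's criterion, where chance gives about 1 in 20. In A+T+/TWD replicate 6, Ntf3 was 6.24, with the next lowest mouse at 6.97, and Nptx2 was 9.41, with the next highest at 8.74. Both values belong to the same mouse, which also had the highest Bdnf of all mice. In A+Tw/STD replicate 2, Ntrk3 was 10.25, with the next lowest at 10.73, and its Ntrk2 (12.49) was the lowest of the STD mice. In AwT+/STD replicate 5, Vgf was 11.31, with the next lowest at 11.63. Leaving out A+Tw/STD replicate 2 gave a diet difference of -0.15 for Ntrk3 (limma, adjusted p = 0.0397), past the threshold.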

How the results depend on the processing

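Ntrk2 was lower on TWD and past the threshold with each of the 45 mice left out in turn (-0.31 to -0.27, limma, adjusted p between 0.00424 and 0.0322). Over all genotypes 1 member passed for diet. This was 0 in batch 0 alone and with the residual component, oligodendrocyte, astrocyte or astrocyte without Gfap covariate, 4 in batch 1 alone, 2 with the choroid plexus covariate or quantile normalization, and 1 to 2 with single mice left out. Within genotypes 0 members passed for diet, against 1 in batch 1 alone and 0 to 1 with single mice left out. For APP/PS1 and tau the count of 0 became 1 with the residual component and 3 with the astrocyte covariate. These calls were for A+ against Aw, where 1028 and 7046 of 15897 genes passed with the 2 covariates, against 599 without. For genotypes within a diet the count of 0 became 5 with the astrocyte covariate and 1 without Gfap. The share of all genes in those fits is not given here. The astrocyte mean includes Gfap, which was higher in A+ mice. With it as covariate Ntrk2 in A+T+ against AwTw on TWD was -0.25, beside 0.04 without. In place of 6 pairs, 1 pair passed in batch 0 alone, Bdnf and Nptx2 (r = 0.68, adjusted p = 0.0336), which was not among the 6. Ntrk2 and Vgf turned to r = 0.46 with the component removed and to 0.0859 in batch 0 alone. The cause of these changes was not tested. The filter on low values left out Ngfr, and a lone mouse in batch 0 (A+Tw/STD) was assumed to vary like the other groups. The design holds no pairs, since each mouse is a separate animal with a single genotype and diet. The labels give no replicate numbers, and those used here only name mice. With no depth in the table, the spread between mice is the only measure of precision.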

Other observations

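Genes of cells that respond to or release neurotrophins were also read under the diet test in limma, which 29.4% of all genes passed. Of 9 interneuron markers 3 were higher on TWD, the calcium buffer Pvalb (0.40 ± 0.10, adjusted p = 0.0157) and the peptides Npy (0.35 ± 0.11, adjusted p = 0.0210) and Sst (0.27 ± 0.09, adjusted p = 0.0211). Among the 2 that were lower was the GABA-synthesizing enzyme Gad2 (-0.62 ± 0.17, adjusted p = 0.0157). The list therefore moved in both directions, with a median of 0.02.

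Of 7 microglia markers 3 were higher on TWD, Aif1 (0.45 ± 0.09, adjusted p = 0.0157), the complement gene C1qa (0.41 ± 0.10, adjusted p = 0.0157) and Tmem119 (0.30 ± 0.08, adjusted p = 0.0159), and the purinergic receptor P2ry12 was lower (-0.36 ± 0.14, adjusted p = 0.0459). All 3 markers of oligodendrocyte precursors passed, Cspg4 (0.22 ± 0.07) and C1ql1 (0.28 ± 0.09) higher and Pdgfra (-0.33 ± 0.09) lower, with adjusted p between 0.0160 and 0.0192. In the oligodendrocyte, astrocyte and residual component fits, 0 genes of the table passed for diet.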
